A study of Arabidopsis thaliana with 4 samples.

Results

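The 10 hypoxia-responsive unknown protein genes form a small group of Arabidopsis thaliana genes that switch on in low oxygen in many organs and cell types but whose products have no assigned biochemical role. They were picked by identifier from the 37885 genes of the deposited count table, and all 10 were found. The series holds 1 group of 4 libraries, from whole prt6-1hyt1-1 double mutant seedlings of 7 days that had grown in continuous light on sucrose-free half-strength MS agar and received no treatment. The labels name the 4 libraries biological replicates without saying how plants were pooled. No wild type, prt6-1 single mutant or low-oxygen library was analysed here, so the values are levels within the double mutant and not effects of either mutation.

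As background, plants sense oxygen through an amino-terminal cysteine. When oxygen is present, plant cysteine oxidases oxidise this residue on group VII ethylene response factors (ERFVIIs), arginine is then attached, and the ubiquitin ligase PRT6 marks the proteins for degradation. In low oxygen, or without PRT6, the ERFVIIs persist and raise a core set of transcripts. Fermentation enzymes and phytoglobin belong to that core set, and so do the genes described here. The columns of the deposited table name hup40 where the labels name hyt1. HUP is the usual abbreviation for a hypoxia-responsive unknown protein. The sources used here do not tie either name to a locus, so any of the 10 genes could be the mutated one, and its count would then be that of a mutant allele.

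The proteins are mostly short. Their median length was 106 residues, beside 348 over 27444 annotated proteins, and 7 of the 10 were under 150 residues, beside 16.1% of all proteins. The coding part was also a small share of several transcripts. AT1G33055 had 201 coding bases in a transcript of 1273 bases, of which 1028 lay after the stop codon, so 15.8% of the transcript was coding, beside a median of 74.8% for all coding genes. In AT5G66985 that share was 34.0%, and in AT4G33560 37.6%. A single exon made up 7 of the 10 transcripts, beside 20% of all. The longest product was the 426-residue kelch protein of AT3G27220, with 7 exons. Kelch repeats fold into a propeller-shaped domain that is widespread in plant proteins.

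**Figure D1:**
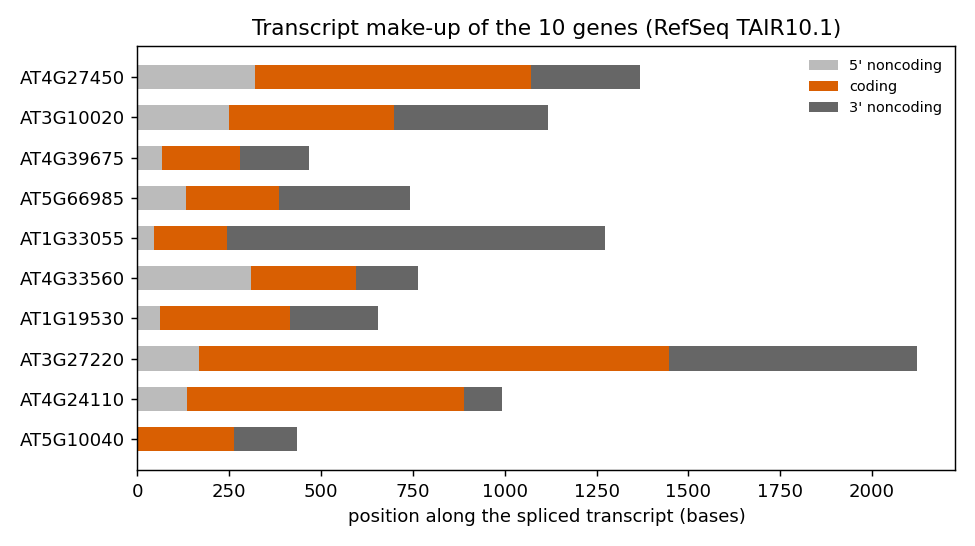
Lengths in bases of the 5′ noncoding, coding and 3′ noncoding parts of the transcript with the longest protein of each gene, from the RefSeq annotation of TAIR10.1, in the order of level in the libraries. AT1G33055 has 1028 bases of 3′ noncoding sequence, and AT5G10040 has no annotated 5′ noncoding part.

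AT4G24110 was the only member whose protein starts with methionine and cysteine, the start that cysteine oxidases act on once methionine is removed. Over all proteins 0.75% start this way. The first 30 coding bases are shown with the second codon in capitals, together with those of its nearest relatives, AT1G01500 and AT1G75180, whose second residues are isoleucine and valine.
AT4G24110: atgTGTaggtcgcccgatttcgagcgttat
AT1G01500: atgATTtcgaaagatcaccttcatcatctg
AT1G75180: atgGTGgagccttatgagacacgtaacaac
Whether the AT4G24110 protein is oxidised or degraded is not a question these counts can address.

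For a pair of members, the product name in the annotation was not matched by similarity to other Arabidopsis proteins of that name. Proteins of other species were not searched. AT4G24110 is listed as an NADP-specific glutamate dehydrogenase, yet 0 of the 3 other genes with glutamate dehydrogenase in their product name matched its protein in a blastp search at an E value of at most 1e-05. Its relatives AT1G01500 and AT1G75180 are listed as erythronate-4-phosphate dehydrogenase family proteins. AT1G19530 is listed as the catalytic subunit A of DNA polymerase epsilon, and 0 of 3 genes with that enzyme in their name matched. AT1G19530, AT3G10020, AT1G33055 and AT5G66985 had 0 relatives in the search. The other members had between 1 and 7.

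Promoters were read for motifs known to be bound by ERF proteins, and for the G-box of bHLH and bZIP factors, over 300 bases before the annotated start and on both strands. The core AAACCA of the hypoxia-responsive promoter element stood in 5 of the 10 promoters, beside 31.8% of 27443 promoters. The longer form of that element, AAACCA followed by any 3 bases and then GC, stood in 0 of the 10, beside 0.962% of all. The GCC box GCCGCC was found in AT4G33560 and AT4G39675, 2 of the 10, beside 2.26%. ATCTA, an element bound by the ERFVII RAP2.2, was found in 5, beside 56% of all, and the G-box CACGTG in AT3G27220 alone, beside 7.09%. The motifs may overlap each other, and the counts were not tested. The stretches around AAACCA are shown to compare the flanks, 5′ to 3′ on the strand that carries the core, with the core in capitals, on TAIR10.1.
AT4G27450 (chr4:13729061-13729090, plus strand): tttaaattttaaAAACCAacagaatagtat
AT5G10040 (chr5:3143472-3143501, plus strand): tcgaggtttttaAAACCAttgtctgtaact
AT5G10040 (chr5:3143522-3143551, plus strand): cacggtatcaatAAACCAacctagccaatt
AT5G10040 (chr5:3143552-3143581, plus strand): ttctctttaaagAAACCAtcaaagccaata
AT1G33055 (chr1:11972689-11972718, minus strand): gaaagttagtatAAACCAagaccaaaaaaa
AT4G24110 (chr4:12521084-12521113, minus strand): actcaagatgagAAACCAcgttcgtaatca
AT4G33560 (chr4:16134962-16134991, plus strand): taaaaaggaacgAAACCAacagaatttgga
3 of the windows belong to AT5G10040, whose annotated transcript begins at its start codon. A match is a run of letters and no measure of binding.

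Across the libraries, 8 of the 10 transcripts were above the median TPM of the genes that passed the expression filter. The other 2, AT4G24110 and AT5G10040, stood above 17.1% and 10% of those genes. TPM is a level per transcript length within a library. The 9 genes that passed the expression filter had a median log2 TPM of 5.18 ± 0.16 (SD over 4 libraries), beside 3.96 ± 0.06 for 42 other core low-oxygen genes and 3.76 ± 0.03 for all 19940 genes kept. With AT5G10040, which missed the filter, the median of the 10 was 5.06. The height depended on the length term. Merged exons had a median length of 992 bases in the 9 genes, beside 1542 in the 42 core genes and 1785 in all genes kept. As counts scaled to library size (CPM), with no length term, the medians on the log2 scale were 4.52 for the 9 genes, 4.12 for the other core genes and 4.02 for all. By CPM, AT1G19530 and AT4G33560 also fell just below the median of the genes kept, at the 49.5th and 48.6th percentiles. Together the 10 genes took 280, 329, 368 and 328 CPM in replicates 1 to 4.

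**Figure D2:**
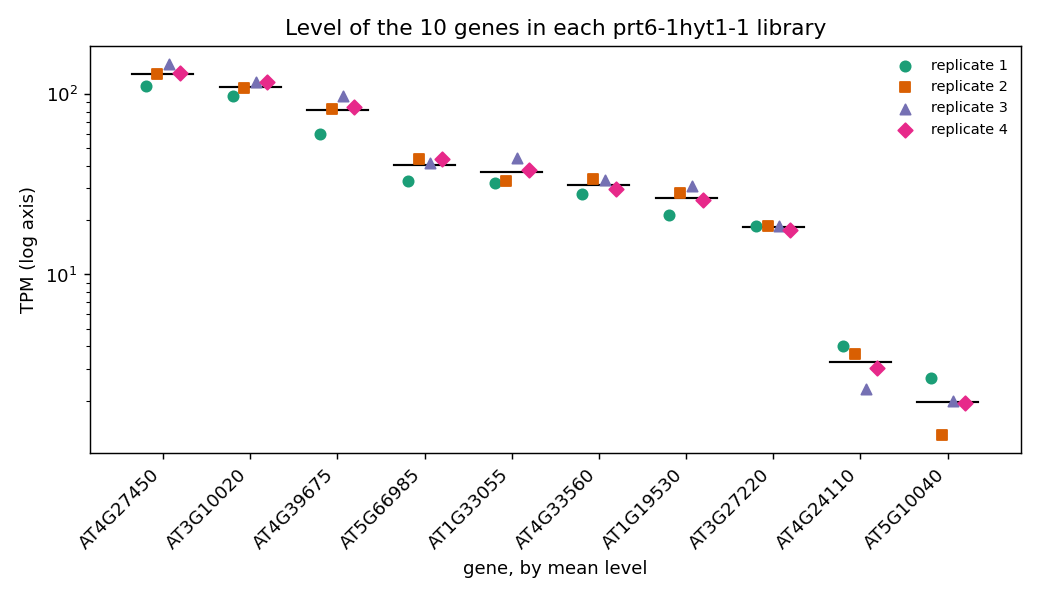
TPM on a log axis for each gene in each of the 4 prt6-1hyt1-1 libraries, with a bar at the mean. AT4G27450 and AT3G10020 lie highest, near 129 and 109 TPM, and AT4G24110 and AT5G10040 lie at the bottom with 3.25 and 1.97 TPM.

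The most abundant member was AT4G27450 (chromosome 4, 13727370 to 13729002, minus strand), which encodes a 250-residue protein of the family with YGL and LRDR motifs. It had 2404, 2969, 3344 and 2869 counts across replicates 1 to 4, for a mean of 129 ± 14.5 TPM (SD, n = 4), above 93.7% of the genes kept. Replicate 3 was high and replicate 1 low, and replicate 3 held 1.36 times the CPM of replicate 1. Its 3′ end shares 71 exon bases, 5.2% of its length, with PORB on the other strand. PORB makes protochlorophyllide oxidoreductase and went the other way, with 728, 652, 606 and 640 CPM in replicates 1 to 4. The part of shared reads was not tested.

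AT3G10020 (chromosome 3, 3090806 to 3091922, minus strand), whose 149-residue product the annotation leaves without a function, came next in level. It had 1735, 2027, 2178 and 2085 counts and averaged 109 ± 8.85 TPM (SD, n = 4). It was below AT4G27450 in 4 of 4 libraries, by 0.23 ± 0.07 on the log2 TPM scale, though the ranges over libraries overlapped. Another core gene, AT3G10040, lies 4423 bases away on the chromosome and stood at 12.7 ± 0.835 TPM.

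A pair of short transcripts came next in the order. AT4G39675 (chromosome 4, 18413775 to 18414240, plus strand; 70 residues) had 444 counts in replicate 1, then 654, 759 and 634, and a mean of 81.3 ± 15.6 TPM (SD, n = 4). Replicate 1 lay well below the other libraries. Its place depended on length, at the 89.7th percentile of genes kept by TPM and the 61.8th by CPM. AT5G66985 (chromosome 5, 26743279 to 26744019, plus strand; 83 residues) had 389, 544, 514 and 520 counts, at 40.4 ± 5.02 TPM (SD, n = 4). Again replicate 1 was low, and the other libraries were close together.

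AT1G33055 (chromosome 1, 11971308 to 11972580, minus strand; 66 residues) had 652, 710, 940 and 773 counts, at 36.8 ± 5.46 TPM (SD, n = 4), and was highest in replicate 3. Its exons share 123 bases, 9.7% of their length, with AT1G33050 on the same strand, and reads there may be assigned to neither gene or to both. AT4G33560 (chromosome 4, 16135157 to 16135921, plus strand), a 95-residue member of a wound-responsive family, had 341, 436, 426 and 365 counts, at 31.2 ± 2.78 TPM (SD, n = 4). Replicates 2 and 3 were high and replicates 1 and 4 low. AT1G19530 (chromosome 1, 6763765 to 6765049, plus strand; 117 residues) had 315, 441, 478 and 388 counts, at 26.6 ± 3.99 TPM (SD, n = 4), with the lowest value in replicate 1.

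AT3G27220 (chromosome 3, 10051069 to 10053761, minus strand), the kelch protein gene, was the steadiest member. It had 626, 666, 663 and 598 counts and 18.4 ± 0.544 TPM (SD, n = 4), and the highest library held 1.10 times the CPM of the lowest. The remaining pair was far lower. AT4G24110 (chromosome 4, 12519907 to 12520898, minus strand; 250 residues) had 63, 60, 38 and 48 counts, at 3.25 ± 0.741 TPM (SD, n = 4), above 17.1% of the genes kept. AT5G10040 (chromosome 5, 3143723 to 3144157, plus strand; 87 residues) had 18, 9, 14 and 13 counts, at 1.97 ± 0.564 TPM (SD, n = 4). Both were highest in replicate 1, where most of the group was lowest. AT5G10040 lies wholly within an intron of an isoform of the TGA4 transcription factor gene on the other strand, which had 731 to 870 counts, and shares 0 exon bases with it. Whether reads from TGA4 entered the few counts of AT5G10040 was not tested.

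Neighbours in the order of log2 TPM were compared within libraries by an exact two-sided sign-flip test, which cannot go below 0.125 with 4 libraries and so can call none. The order was set by the mean over these same 4 libraries, so the first-named gene of each pair was higher on average by construction. It was higher in 4 of 4 libraries for 7 of the 9 neighbouring pairs. AT5G66985 and AT1G33055 differed by 0.14 ± 0.21 and AT1G33055 and AT4G33560 by 0.23 ± 0.20, with 3 of 4 libraries on one side in each (exact p 0.375 and 0.25). Ranges over libraries did not overlap for AT3G10020 over AT4G39675, AT4G39675 over AT5G66985, AT1G19530 over AT3G27220, and AT3G27220 over AT4G24110. The last of these was the widest step, at 2.53 ± 0.35. Without the length term, 3 of the 9 neighbouring pairs changed places.

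Most of the group moved together between replicate seedling samples, low in replicate 1 and high in replicate 3. Of the 10 genes, 7 were lowest in replicate 1, beside 28.5% of all genes kept, and 6 were highest in replicate 3, beside 26.1%. Among the 42 other core genes, 18 were lowest in replicate 1 and 22 highest in replicate 3. The median deviation of the 9 genes from their own means was -0.20, 0.07, 0.12 and 0.00 across replicates 1 to 4 on the log2 CPM scale. For the other core genes the medians were -0.07, 0.02, 0.11 and -0.05, and for all genes kept 0.00 in each. These are descriptions, and the difference between the groups was not tested. Tissue markers also differed between these libraries. Of 7 seedling markers, 3 were lowest in replicate 1 (RCA of leaf, PYK10 and SHV2 of root) and 2 highest in replicate 3 (the leaf genes RBCS1A and RCA). SHV2 deviated by -0.37 in replicate 1 and -0.14 in replicate 3, PYK10 by -0.13 and 0.01, and RCA by -0.09 and 0.12. The root gene IRT1 ran the other way, at 0.28 and -0.50, and STM of the shoot apex stood at 0.22 and -0.05. The leaf genes RBCS1A and CAB1 stayed between -0.08 and 0.05. The part of tissue make-up in the pattern of the group was not tested.

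**Figure D3:**
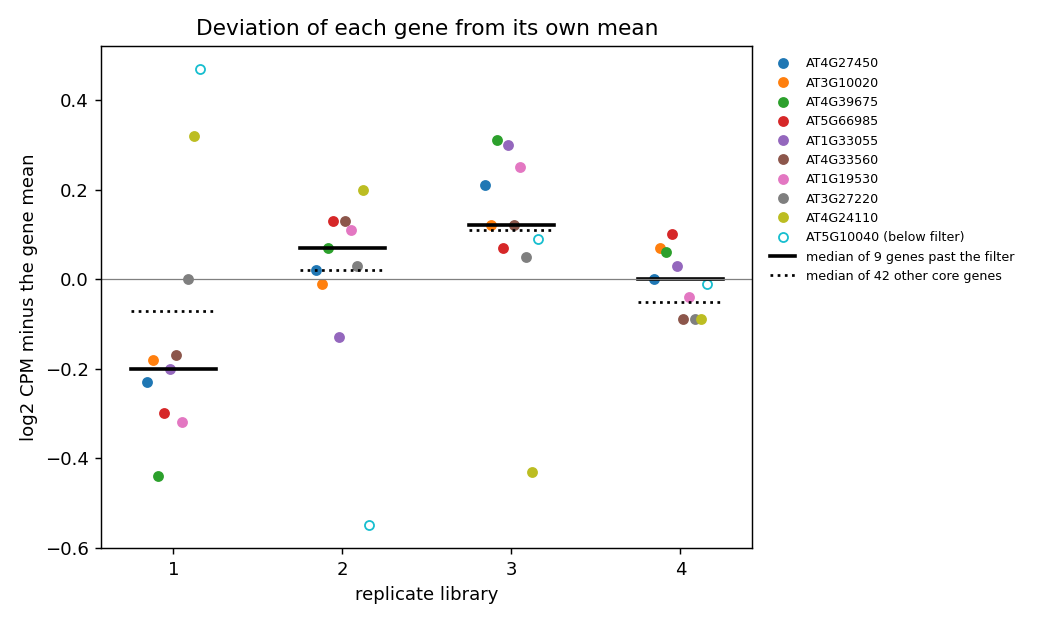
Log2 CPM of each gene minus its mean over the 4 libraries, by library, with the median of the 9 genes past the filter as a solid bar and that of 42 other core low-oxygen genes as a dotted bar. In replicate 1 the solid bar is at -0.20 and the dotted bar at -0.07, while AT4G24110 and AT5G10040 lie above 0.

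Within that pattern the sizes differed. AT4G39675 spanned from -0.44 in replicate 1 to 0.31 in replicate 3, AT1G19530 from -0.32 to 0.25, and AT3G10020 only from -0.18 to 0.12. AT3G27220 stayed between -0.09 and 0.05. AT4G24110 ran against the rest, at 0.32 in replicate 1 and -0.43 in replicate 3. Its counts are small, and its difference between libraries was within counting error (homogeneity test over all genes, adjusted p 0.10). As root mean square difference of the 4 deviations from the median of the other genes past the filter, AT4G27450 was nearest, at 0.0626, and AT4G24110 farthest, at 0.412.

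Of the other core genes, the closest profiles to the median of the group were those of ACR7, which encodes a protein with amino acid-binding ACT repeats, AT3G03270, which encodes a universal stress protein family member, and the sucrose synthase gene SUS4. Their root mean square differences over the 4 libraries were 0.0164, 0.0166 and 0.0411. The counts of ACR7 differed between libraries only within counting error (homogeneity test over all genes, adjusted p 0.184). Those of AT3G03270 and SUS4 differed by more (adjusted p 8.18e-18 and 2.44e-05 in the same test). AT3G03270 is also among the 3 most abundant of these core genes, at 111 ± 8.81 TPM, with the phytoglobin gene HB1 at 148 ± 17.0 TPM and the desaturase gene AT1G43800 at 104 ± 3.96 TPM (SD, n = 4 each). By mean TPM, AT4G27450 ranked between HB1 and AT3G03270.

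Counts differed between libraries by more than counting error for 7 of the 10 genes, by a chi-square test of homogeneity adjusted over 20687 genes. Of all genes tested 42.6% had this call, and 27 of the 42 other core genes did. A call comes more easily with more counts. Among 4594 genes kept within 1.5-fold of the median count of the group, 39.4% had it. The adjusted p of the homogeneity test was 1.59e-27 for AT4G27450, 6.66e-15 for AT4G39675 and 2.69e-11 for AT1G33055. AT3G10020, AT1G19530, AT5G66985 and AT4G33560 were also called, with adjusted p from 7.96e-09 to 0.0159 in the homogeneity test. AT3G27220, AT4G24110 and AT5G10040 were not (adjusted p 0.422, 0.10 and 0.427), the last with too few counts for a small difference to be detectable. Without replicate 1, 4 of the 10 genes had the call, beside 26.5% of all, and those that lost it were AT3G10020, AT4G33560 and AT5G66985.

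The biological coefficient of variation (BCV) is an estimate of the spread between libraries beyond counting error. The value of each gene is drawn toward the trend over all genes, so it is not the spread of that gene alone. AT3G27220 and AT4G24110 thus have a BCV though the homogeneity test did not call them. BCV lay above the trend for 8 of the 9 genes past the filter, beside 34.1% of all genes kept. AT4G33560 and AT4G24110 exceeded the trend by only 0.00171 and 0.00188. AT4G39675 had a BCV of 0.113, where the trend at its level was 0.0677, and AT1G33055 one of 0.0906 beside 0.0642. AT4G27450 had 0.0776 beside 0.0573. AT3G27220 lay below its trend, at 0.0597 beside 0.0672. The median excess over the trend was 0.0134 for the 9 genes, 0.00335 for the other core genes and -0.00368 for all genes kept. For the 9 genes it was 0.000378 without replicate 1 and 0.00518 without replicate 3, beside -0.00247 and -0.00349 for all genes kept.

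**Figure D4:**
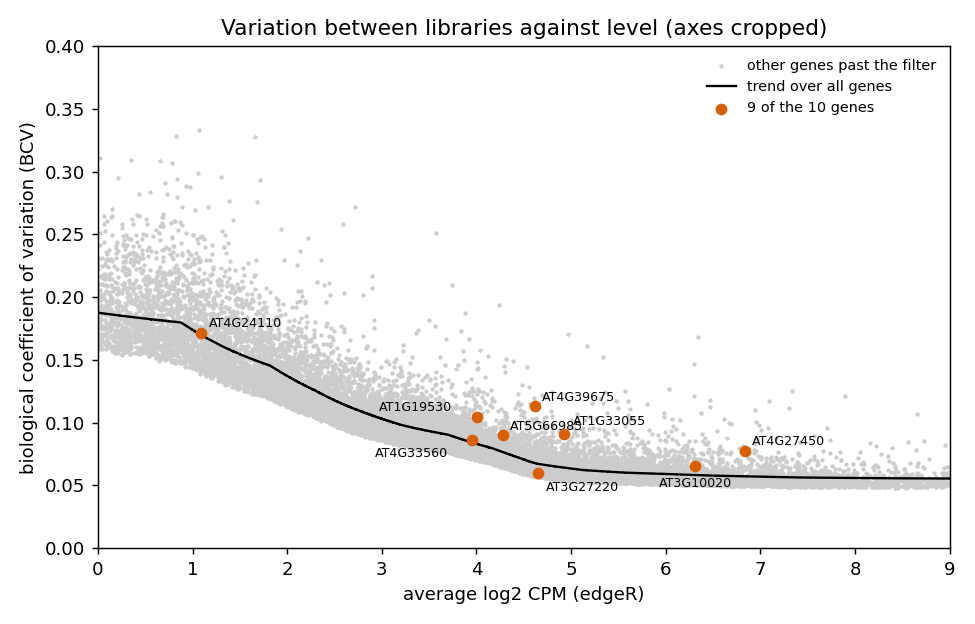
BCV against average log2 CPM for genes past the filter, with the trend as a line and 9 of the 10 genes in colour; both axes are cropped. AT4G39675 stands 0.0455 above the trend, the most of the 9, and AT3G27220 is the only one below it.

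Relatives by protein similarity were measured in the same libraries, and the member was not always the more abundant copy. AT4G27450 shares 71.3% of aligned residues with AT3G15450, which stood at 623 ± 88.7 TPM, and the member was lower by -2.27 ± 0.13 on the log2 TPM scale, in 4 of 4 libraries. AT3G15450 was also lowest in replicate 1 and highest in replicate 3, with 9243, 9614, 12611 and 11517 counts. Of the other family members with YGL and LRDR motifs, AILP1 stood at 314 ± 14.7 TPM, AT5G43830 at 172 ± 7.69 and AT3G22850 at 82.2 ± 9.51 (SD, n = 4 each).

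AT5G10040 was far below its relative. AT5G65207, 45.7% identical over 70 residues, had 530, 650, 804 and 722 counts and 79.6 ± 12.7 TPM, so the member was lower by -5.37 ± 0.54 on the log2 TPM scale in 4 of 4 libraries. In the wound-responsive family, AT4G33560 stood between a pair of genes that are themselves core low-oxygen genes. Log2 TPM of AT4G33560 differed by -0.73 ± 0.14 from AT4G10270, at 51.9 ± 7.67 TPM, and by 2.91 ± 0.37 from AT4G10265, at 4.22 ± 0.884 TPM. Its nearest relative, AT2G14070, had 1, 3, 0 and 6 counts.

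AT4G39675 exceeded its relative AT2G22122, 78.1% identical over 32 residues, by 1.40 ± 0.18 on the log2 TPM scale in 4 of 4 libraries. The kelch gene AT3G27220 and AT1G51540, 64.5% identical, differed by 0.14 ± 0.14 in log2 TPM, with 3 of 4 libraries positive (exact sign-flip p 0.25). AT1G51540 had 460, 440, 384 and 408 counts, and neither gene varied beyond counting error (homogeneity test over all genes, adjusted p 0.422 for AT3G27220 and 0.064 for AT1G51540). AT4G24110 was lower than AT1G01500, a 25.4% identical relative at 13.4 ± 1.07 TPM, by -2.07 ± 0.28. Besides the overlap of AT1G33055 with AT1G33050, no other transcript matched a transcript of the 10 genes over at least 100 bases at 90% identity or more.

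**Figure D5:**
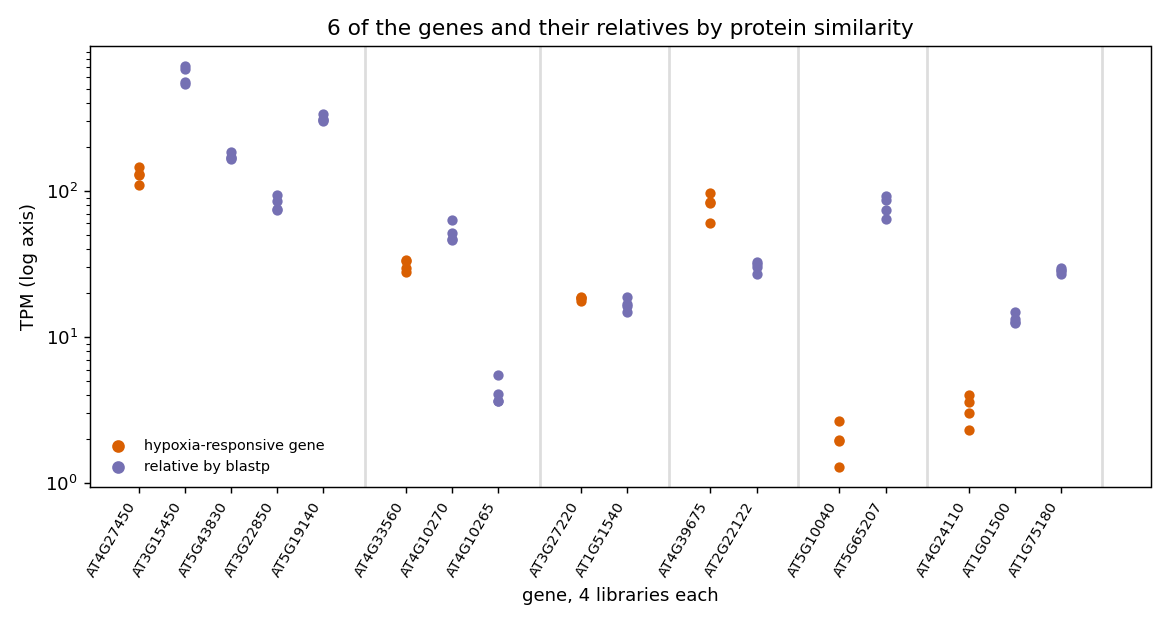
TPM on a log axis in the 4 libraries for 6 of the genes and a choice of their relatives found by blastp, with a vertical line between families. AT2G14070, the nearest relative of AT4G33560, is not drawn. Nor are the weaker matches ASN1, ASN2 and ASN3 of AT4G27450 and AT1G18610 of AT3G27220. AT3G15450 lies above AT4G27450 and AT5G65207 lies far above AT5G10040, while AT3G27220 and AT1G51540 overlap.

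Depth was even, at 24743656 to 26155431 counts per library, and no pair of libraries agreed within counting error, the closest pair having a chi-square of 3.82 per gene. Replicate 1 was the library least like the rest over all genes. It had 6.68, 7.48 and 5.62 per gene against replicates 2, 3 and 4, while pairs without it had 3.82 to 5.48. Markers of leaf (RBCS1A), root (PYK10) and shoot apex (STM, 59 to 93 counts) were present in every library of these whole seedlings. Seed storage transcripts stood apart in replicate 2, where CRU3 had 998 counts beside 0 to 2 in the others. Of the 10 genes, AT5G10040 was lowest in replicate 2, 1 of 10 beside 23% of all genes kept, and AT4G33560 and AT5G66985 were highest there, 2 of 10 beside 22.6%. In bulk seedlings, a transcript made by fewer cells and one made at a lower level per cell cannot be told apart.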

How the data were processed

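Poly(A)-selected RNA of 4 whole-seedling samples was made into directional libraries, per the labels' protocols. The authors deposited raw counts per gene, made with HISAT2 2.1.0 and featureCounts 1.6.0 on TAIR10, per the submitters' processing notes. How strand and reads over more than 1 gene were treated is not given in the sources used here. Columns were matched to samples through prt6-1 and the replicate number in their names, since they name hup40 in place of hyt1, and the title of replicate 4 writes prt-16. Gene models, proteins and sequences came from RefSeq TAIR10.1, a build other than the authors', and 37882 of 37885 identifiers matched. Coordinates and sequence were both read from it, never joined to the counts by position.

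CPM used TMM library sizes and TPM used the count plus 0.5 over merged exon length, in edgeR 4.0.16 under R 4.3.3. Short transcripts are uncertain in TPM. The filter of edgeR kept 19940 genes. BCV came from an intercept-only fit, as the estimate per gene that edgeR draws toward the trend. The homogeneity test took genes with 10 or more expected counts in each library, with Benjamini-Hochberg adjustment at 0.05. Its calculation was checked on simulated counts with counting error only and a change planted in some genes. These libraries vary by more than that, so the check does not cover how the test behaves in them. Proteins were searched with BLAST 2.17.0. With 1 group, no test between groups was possible. The homogeneity p-values measure only differences between these samples beyond counting error, which may be technical. The sign-flip p-values measure only how steadily a gene stood above another within these libraries. The genes and the core list of 42 were chosen with earlier results of these data known. All 10 genes are named, with their nearest relatives, the core neighbours on the chromosome, and the 3 highest and 3 most alike core genes. Relatives of lower rank were named after their values were seen, as were overlapping genes. The alternatives were other library scalings, no filter, other added counts, other count minimums and thresholds, no length term, and leaving out each library.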

Additional observations from a re-analysis of the deposited data

Results flagged for a closer look

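AT5G66985 had 1 library far from the others. Its level was 15.6 CPM in replicate 1 and 21.0, 20.2 and 20.6 CPM in replicates 2 to 4, so that the gap below the next library was 0.853 of the whole range, over Dixon's critical value for 4 samples. Chance gives such a gap in about 1 in 20 groups, and 10 genes were examined. Without replicate 1 its counts no longer differed beyond counting error (homogeneity test over all genes, adjusted p 0.88). The cause was not tested.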

How the results depend on the processing

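No paired analysis was possible because the series has 1 group. The median log2 level of the group was 4.52 without the length term, as CPM, against 5.18 with it, as TPM. It was 5.23, 5.11 and 5.15 without replicates 1, 3 and 4. Without replicate 2 it was 5.06, but AT5G10040 then passed the filter and the median was over 10 genes. The number of genes varying beyond counting error was 4 without replicate 1, beside 26.5% of all genes tested. It was 7 without replicate 2, 3 or 4, beside 35.2%, 30.8% and 35.7% of all. At a threshold of 0.01 it was 6, and the share of all genes at that threshold is not given here. The median by which BCV exceeded the trend ranged from 0.000378 without replicate 1 to 0.0155 without replicate 4, beside 0.0134 with all libraries. For all genes kept it was -0.00247 without replicate 1, -0.00405 without replicate 4 and -0.00368 with all libraries. The share of all genes called was lower than the 42.6% with all libraries whichever library was left out. The other 65 recomputed values, among them the deviations by library under each scaling and the number of genes lowest in replicate 1 (7 to 8), stayed within the spread between libraries, or within 1.5 times for counts and the BCV excess. No value turned its direction, apart from the deviation in replicate 4 and the order of 3 neighbouring pairs. That deviation, 0.00 with all libraries, was -0.08 without replicate 1 and 0.07 without replicate 3. The 3 pairs changed places in the order of levels without the length term. The 63 or fewer counts per library of AT4G24110 and the 18 or fewer of AT5G10040 limit what can be said of their variation. Reads of overlapping genes limit AT4G27450 and AT1G33055. They may also limit AT5G10040, which lies within TGA4 on the other strand.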
